A study of Mus musculus with 6 samples.

Results

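Aminoacyl-tRNA synthetases were examined in MLE12 cells in which Idh3α and Slc25a1 had been silenced together. Each of these enzymes joins an amino acid to its tRNA, which makes the charged tRNA that the ribosome reads. Most amino acids have one synthetase gene for the cytosol and a separate nuclear gene for the mitochondrion, whose enzyme serves the translation of the mitochondrial genome. When an amino acid runs short, uncharged tRNA activates the kinase GCN2, and the transcription factor ATF4 then raises genes of amino acid synthesis and transport together with many cytosolic synthetases. The rule took every protein-coding gene with a synthetase symbol and used no measured value, which gave 38 of 22046 protein-coding genes and of 54532 genes in all. Of these, 17 were counted as mitochondrial and 21 as cytosolic. Tarsl2, a threonyl-tRNA synthetase paralogue that works in the cytosol, was counted as cytosolic although its name ends in 2, and Gars and Kars, which serve both compartments from a single gene, were also counted as cytosolic.

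The series holds 6 RNA-seq libraries from MLE12 cells, a mouse line of alveolar type 2 origin that carries the SV40 large T antigen, and the labels give C57BL/6J as the strain. The 3 Ctrl shRNA libraries came from cells infected with an empty control lentivirus at a multiplicity of infection (MOI) of 50. The other 3, referred to as the knockdown, came from cells given Idh3α shRNA and Slc25a1 shRNA lentiviruses together, each at an MOI of 50, a model made to accumulate citrate in mitochondria. In both groups the medium was changed after 16 h and the cells were kept for a further 80 h. The labels name no LPS treatment, single knockdowns are not analysed here, and all libraries come from 1 transformed line. Nothing in the labels says whether the 3 libraries of a group came from separate cultures, so the p-values measure the spread between these libraries, which may be technical.

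The libraries held 27273502 to 28535653 counts. Ctrl shRNA replicate 2 stood apart from the other 5: 16681 genes were detected in it against 19902 to 23147, 27.2% of its counts fell on the top 100 genes (12.5% to 12.9% elsewhere), and 6.49% on the mitochondrial genome (1.57% to 1.80% elsewhere). The synthetases took 0.252% of its counts, compared with 0.378% to 0.416% elsewhere. Results are therefore given with and without this library. Idh3a read 79.8, 137 and 93.0 CPM (counts scaled to library size with edgeR's TMM factors) in the controls and 58.5, 57.9 and 55.5 in the knockdown. Slc25a1 read 103, 98.7 and 108 CPM in the controls and 68.9, 69.6 and 63.0 in the knockdown. Neither targeted gene overlapped between the groups. Both passed edgeR's quasi-likelihood test without Ctrl shRNA replicate 2 (log2 fold change -0.60, adjusted p = 0.014, and -0.66, adjusted p = 0.0065). With that library neither passed in edgeR (adjusted p = 0.25 and 0.10). Over all libraries both passed in DESeq2 (adjusted p = 0.017 and 6.4e-08). Both also passed in limma with libraries weighted by their quality, a fit described below (adjusted p = 0.0029 and 0.0010). Of 14 alveolar and epithelial markers (summed level 861 to 922 CPM in the controls and 823 to 878 in the knockdown), 9 were high enough to test. Nkx2-1, Krt8, Abca3 and Cdh1 were at 68.4 CPM or more in every library, Epcam, Napsa and Sftpb at 4.01 CPM or less, and Sftpa1, Sftpd, Slc34a2, Lamp3 and Krt18 too low to test over all libraries. Sftpc was lower in the knockdown without Ctrl shRNA replicate 2 (log2 fold change -0.65, edgeR's adjusted p = 0.044) and Etv5 higher (0.57, adjusted p = 0.031). The 9 markers of other cell types summed to 24.3 to 27.2 CPM in the controls and 22.7 to 29.4 in the knockdown, of which the collagen gene Col1a1 made 16.5 to 22.8 CPM. Cd68 and Pdgfra, at 3.91 CPM or less, were higher in every knockdown library than in any control (log2 fold changes 0.51 and 0.63, edgeR's adjusted p = 0.35 and 0.31), while Ptprc, Adgre1, Cdh5, Col3a1 and Acta2 were too low to test. In limma with weights Sftpc and Nkx2-1 were lower (adjusted p = 0.018 and 0.029), and Etv5, Napsa and Pdgfra higher (adjusted p = 0.0027, 0.022 and 0.031). The part of these markers in the synthetase values was not tested.

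Differences among the 38 synthetase mRNAs were small, with log2 fold changes (knockdown over control) from -0.35 for Cars to 0.54 for Vars. All 38 passed the filter on low counts. Over the 15307 genes tested, with p-values adjusted by Benjamini and Hochberg's method, 0 synthetases passed 0.05 in edgeR, beside 0.0653% of all genes. Before adjustment, p was under 0.05 for 3 synthetases that were lower and 4 that were higher (7.89% and 10.5% of the 38), against 6.65% and 7.47% of all genes. Summed over the cytosolic genes, the level per transcript length was 634, 649 and 642 FPKM (fragments scaled by transcript length and library size) in the controls and 634, 643 and 610 FPKM in the knockdown. In a bulk library a lower mRNA level per cell and fewer cells that express the gene cannot be told apart.

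**Figure D1:**
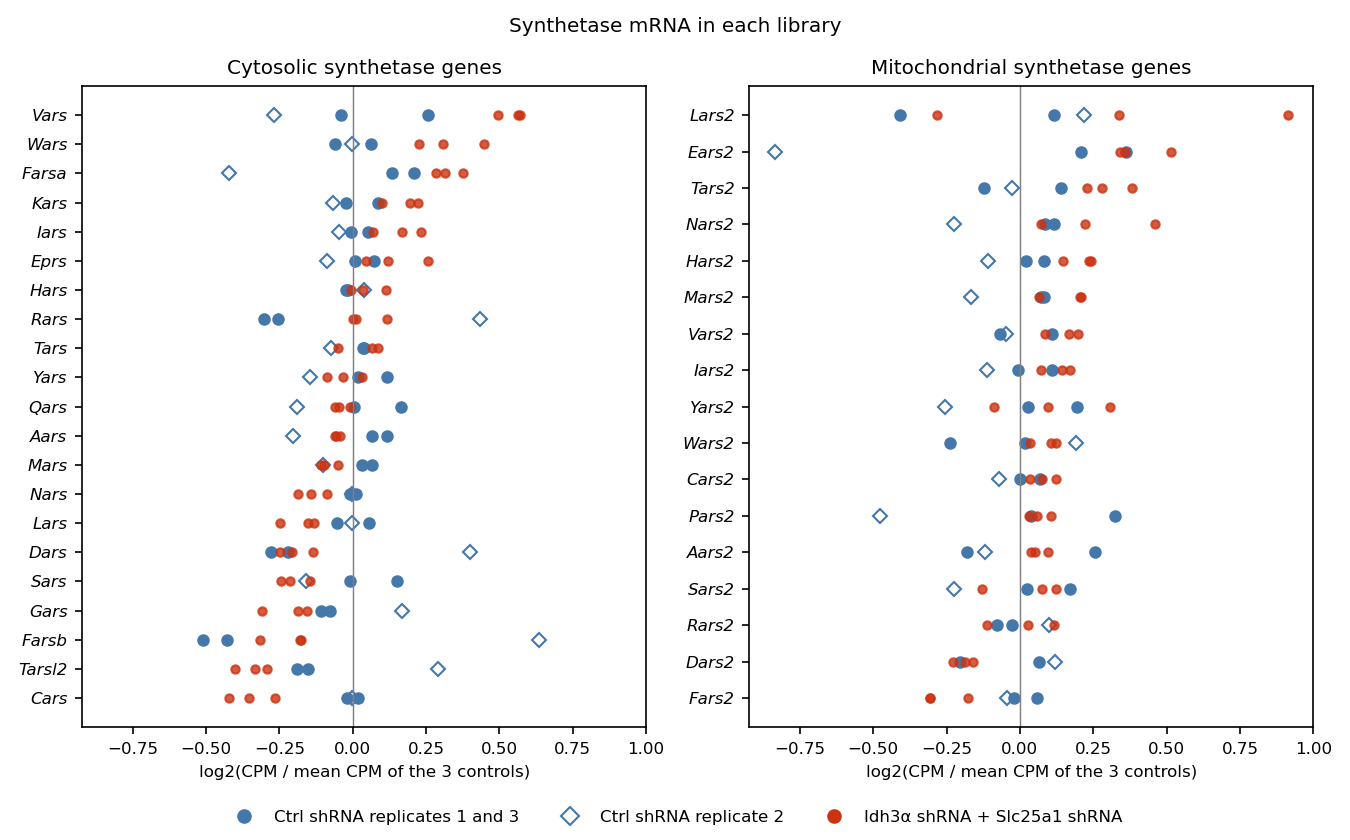
Each row is a synthetase gene and each point a library, drawn as the log2 ratio of its CPM to the mean CPM of the 3 controls. Filled blue circles are Ctrl shRNA replicates 1 and 3, open diamonds Ctrl shRNA replicate 2 and red circles the knockdown. The groups do not overlap for 6 genes that are lower and 7 that are higher in the knockdown, and the open diamond lies far from the other controls for Farsb, Rars, Dars and Ears2.

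The cysteinyl-tRNA synthetase gene Cars (chr7:143557230-143600090, mm10, minus strand) was the one synthetase past the threshold in edgeR without Ctrl shRNA replicate 2 and in DESeq2 over all libraries. It read 99.5, 98.1 and 96.9 CPM in the controls and 76.8, 81.7 and 73.3 CPM in the knockdown. All 3 knockdown libraries lay below all 3 controls, with a gap wider than the range of either group. The log2 fold change was -0.35 ± 0.07 (SE, n = 3 and 3), and edgeR's adjusted p was 0.22 over all libraries and 0.049 without Ctrl shRNA replicate 2, although Cars itself had a like level in the 3 controls. DESeq2, a second count test, gave an adjusted p of 0.0039. That is 1 of 38 synthetases (2.63%) lower without that library, beside 0.675% of all genes lower and 1.11% higher, and 1 of 38 was lower by DESeq2, beside 1.6% lower and 2.2% higher. DESeq2 without that library called 2 synthetases lower, Cars and Sars (5.26%, beside 3.35% of all genes), and 3 higher, Vars, Wars and Rars (7.89%, beside 4.74%).

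Limma was also run with each library weighted by its quality. The weights were 0.621, 0.101 and 3.19 for the controls and 2.82, 0.948 and 1.88 for the knockdown. Ctrl shRNA replicate 2 thus had the least weight, and Ctrl shRNA replicate 3 carried most of the control weight. In that fit 4 synthetases were lower (Cars, Sars, Lars and Fars2) and 4 higher (Vars, Wars, Rars and Tars2). Each count is 10.5% of the synthetases, against 6.34% of all genes lower and 8.67% higher in that fit. The seryl-tRNA synthetase gene Sars read 198, 179 and 222 CPM in the controls and 172, 180 and 168 CPM in the knockdown, so its groups overlapped at Ctrl shRNA replicate 2. Its log2 fold change was -0.20 ± 0.10 (SE; adjusted p = 0.38) in edgeR over all libraries, -0.28 ± 0.07 (SE; adjusted p = 0.10) in edgeR without that library, -0.28 (adjusted p = 0.014) in DESeq2 without it, and -0.33 ± 0.06 (SE; adjusted p = 0.012) in limma with weights.

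Among the members with the lowest fold changes, Tarsl2 and Fars2 also had groups that did not overlap. Tarsl2 read 14.9, 20.2 and 14.5 CPM in the controls and 12.5, 13.1 and 13.5 CPM in the knockdown, a log2 fold change of -0.34 ± 0.15 (SE) that became -0.18 without Ctrl shRNA replicate 2, the highest control. Its annotated span overlaps 923 bases of Tm2d3 on the same strand, and the Tm2d3 count is 114% of its own, so the split of reads between them is uncertain. Fars2, the mitochondrial phenylalanyl-tRNA synthetase, read 19.2, 18.9 and 20.3 CPM in the controls and 17.2, 15.8 and 15.8 CPM in the knockdown. Its log2 fold change was -0.26 ± 0.09 (SE), with adjusted p-values of 0.34 by edgeR and 0.040 by limma with weights. Its annotated span overlaps Nrn1 by 920 bases and Lyrm4 by 115 on the opposite strand, and their counts are 74% and 57.6% of its own.

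The cytosolic phenylalanyl-tRNA synthetase has subunits from separate genes, Farsa and Farsb, and in both the fitted difference was carried largely by Ctrl shRNA replicate 2. Farsb read 50.8, 106 and 47.9 CPM in the controls and 60.3, 60.4 and 54.8 CPM in the knockdown, so that the knockdown lay between that control and the other two. Its log2 fold change was -0.22 ± 0.31 (SE) over all libraries and 0.23 ± 0.08 (SE) without that control, and neither passed edgeR's test (adjusted p = 0.73 and 0.16). Farsa read 80.4, 54.7 and 84.8 CPM in the controls and 95.0, 91.2 and 89.3 CPM in the knockdown. Here Ctrl shRNA replicate 2 was the lowest control, and the log2 fold change went from 0.33 to 0.14 without it.

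The valyl- and tryptophanyl-tRNA synthetase genes had the highest fold changes of the cytosolic set. Vars read 124, 85.9 and 101 CPM in the controls and 153, 153 and 146 CPM in the knockdown. The groups were well apart with or without Ctrl shRNA replicate 2, with log2 fold changes of 0.54 ± 0.14 and 0.42 ± 0.09 (SE). Its adjusted p was 0.28 in edgeR over all libraries, 0.070 without that control, 0.0503 in DESeq2, 0.0017 in DESeq2 without that control and 0.0049 in limma with weights. Wars read 71.9, 68.7 and 66.0 CPM in the controls and 85.2, 93.8 and 80.6 CPM in the knockdown, again without overlap. Its log2 fold change was 0.33 ± 0.08 (SE), with adjusted p-values of 0.28, 0.11, 0.071, 0.020 and 0.016 in the same order.

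Counted over the set, the groups did not overlap for 6 of 38 synthetases in the lower direction (Cars, Tarsl2, Fars2, Gars, Lars and Nars) and for 7 in the higher (Vars, Wars, Farsa, Kars, Iars, Tars2 and Hars2). The annotated span of Hars2 overlaps that of Hars by 198 bases on the opposite strand, and the Hars count is 212% of its own. These are 15.8% and 18.4% of the members, against 10.7% and 14.7% of all genes tested. Without Ctrl shRNA replicate 2 the counts were 10 and 11 (26.3% and 28.9%), against 17.5% and 20.4% of all genes. For a single gene, an exact two-sided permutation test of 3 against 3 libraries cannot go below p = 0.1.

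**Figure D2:**
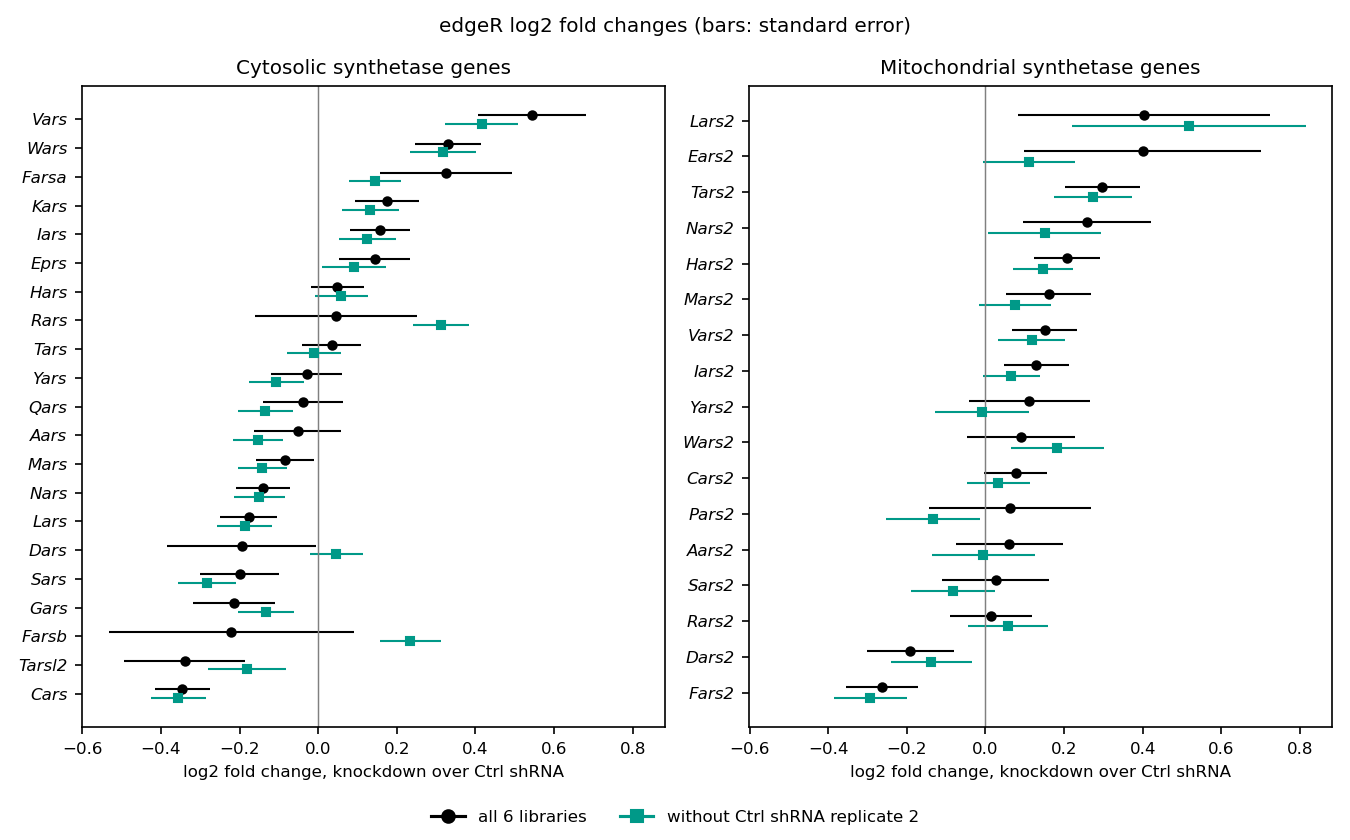
The log2 fold change of each synthetase, knockdown over Ctrl shRNA, from edgeR with its standard error, for all 6 libraries (black circles) and without Ctrl shRNA replicate 2 (green squares). Farsb and Dars lie below 0 with that library and above 0 without it, and Rars goes from 0.04 to 0.31.

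Of the mitochondrial synthetases, 15 of 17 had a log2 fold change above 0, compared with 9 of 21 cytosolic ones. The medians were 0.11 and -0.04, beside -0.01 over all genes tested. Without Ctrl shRNA replicate 2 the mitochondrial count was 11 of 17 (median 0.07) and the cytosolic count 10 of 21 (median -0.01). Among 14 amino acids with a separate gene for each compartment, the mitochondrial gene had the higher log2 fold change in 10 pairs, with a median difference of 0.15, and in 9 pairs without that library, with a median difference of 0.12. The 4 pairs with the opposite order over all libraries were those for isoleucine, arginine, valine and tryptophan. None of the mitochondrial genes passed edgeR's adjusted threshold, and 1 lower and 2 higher had an unadjusted p under 0.05 (5.88% and 11.8% of the 17, against 6.65% and 7.47% of all genes). By DESeq2 none of them passed either, with or without Ctrl shRNA replicate 2. In limma with weights Fars2 was lower and Tars2 higher, each 5.88% of the 17, against 6.34% and 8.67% of all genes.

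Lars2, the mitochondrial leucyl-tRNA synthetase, had the highest fold change of the mitochondrial genes over all libraries, a value that rested on knockdown replicate 2. It read 188, 289.9 and 271 CPM in the controls and 205, 469.7 and 315 CPM in the knockdown, so the groups overlapped (log2 fold change 0.40 ± 0.32 SE; edgeR's adjusted p = 0.53). The log2 fold change was 0.06 without knockdown replicate 2 and 0.09 in limma with weights. The cytosolic gene Lars read 127, 131 and 137 CPM in the controls and 120, 111 and 118 CPM in the knockdown and showed no such spread. Across libraries Lars2 moved with 2 RNA genes, chosen after their values were seen. Gm23935, annotated as a miRNA gene, read 616, 1095 and 843 CPM in the controls and 652, 1702 and 1101 CPM in the knockdown. Gm26917, annotated as a long intergenic RNA, read 86.6, 129 and 121 CPM in the controls and 115, 765 and 155 CPM in the knockdown. Knockdown replicate 2 was the highest library for all 3 of these genes, and their part in the Lars2 values was not tested. With Lars2 left out, the summed mitochondrial level was 78.0, 69.0 and 78.1 FPKM in the controls and 81.9, 79.6 and 79.9 FPKM in the knockdown, and the median log2 fold change was 0.10.

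**Figure D3:**
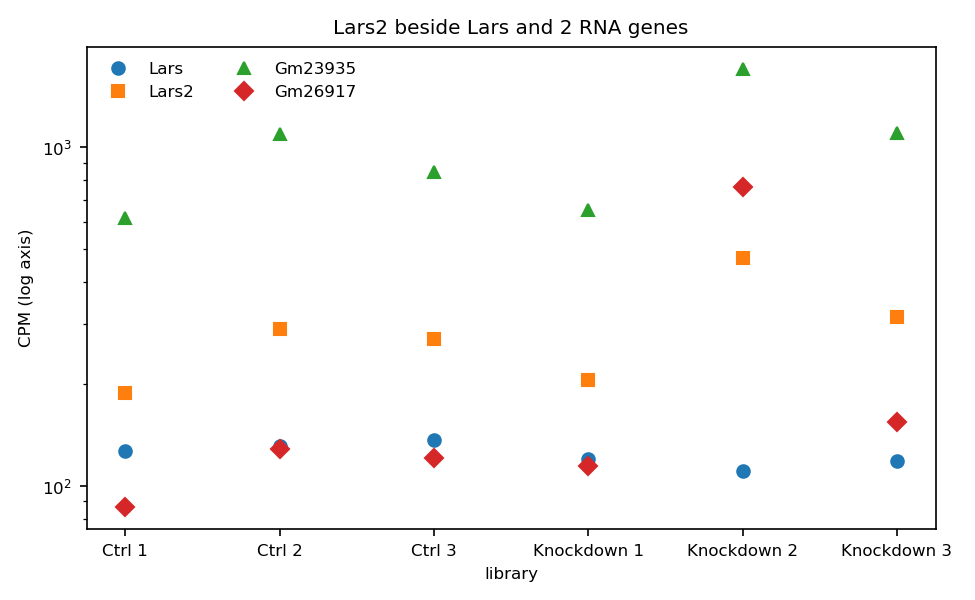
CPM on a log axis in each of the 6 libraries for Lars2, Lars, Gm23935 and Gm26917. Lars2 peaks at 469.7 CPM in knockdown replicate 2, where Gm23935 reaches 1702 and Gm26917 765, while Lars stays between 111 and 137.

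Ears2, the mitochondrial glutamyl-tRNA synthetase, read 9.59, 4.66 and 10.7 CPM in the controls and 11.9, 10.7 and 10.5 CPM in the knockdown. Its fold change rested on the low value in Ctrl shRNA replicate 2, since the log2 fold change was 0.40 ± 0.30 (SE) with that library and 0.11 ± 0.12 (SE) without it. Its annotated span overlaps Ubfd1 by 89 bases on the opposite strand, the Ubfd1 count is 635% of its own, and whether the counting used strand is not given in the sources used here. The threonyl gene Tars2 was steadier, at 43.9, 39.1 and 36.6 CPM in the controls and 46.7, 48.4 and 52.0 CPM in the knockdown, with a log2 fold change of 0.30 ± 0.10 (SE) and adjusted p-values of 0.33 in edgeR and 0.023 in limma with weights.

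Ctrl shRNA replicate 2 was more than 1.5-fold above the mean of the other controls for 3 synthetases (Farsb, Rars and Dars), beside 22.8% of all genes tested, and more than 1.5-fold below it for 3 others (Ears2, Pars2 and Farsa), beside 13%. Rars, for arginine, read 65.8, 106 and 63.6 CPM in the controls and 78.5, 85.1 and 79.1 CPM in the knockdown. Dars, for aspartate, read 81.2, 130.0 and 84.5 CPM in the controls and 85.4, 89.8 and 83.1 CPM in the knockdown. In both genes the other controls lay below or within the knockdown values. Leaving the library out changed the sign of the log2 fold change in 7 synthetases, of which 3 were cytosolic and 4 mitochondrial.

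The Rars and Dars proteins belong to the multisynthetase complex, a cytosolic assembly of synthetases on scaffold proteins. The median log2 fold change was 0.003 for its 8 synthetase genes (4 above 0 and 4 below) and -0.05 for the other 13 cytosolic genes (5 above and 8 below). Without Ctrl shRNA replicate 2 the medians were 0.07 (5 above and 3 below) and -0.11 (5 above and 8 below). The scaffold gene Aimp1 read 56.5, 160 and 64.7 CPM in the controls and 56.1, 55.0 and 53.4 CPM in the knockdown, and Eef1e1, another scaffold gene, read 15.9, 72.4 and 21.4 CPM and 22.7, 19.7 and 21.3 CPM. For both, the one high value was that of Ctrl shRNA replicate 2. Without that library Aimp1 was still lower without overlap (log2 fold change -0.15, edgeR's adjusted p = 0.31). Aimp2, also a scaffold gene, read 21.29, 37.36 and 20.05 CPM in the controls and 28.46, 29.27 and 22.35 CPM in the knockdown. Its log2 fold change was 0.03 over all libraries and 0.36 without Ctrl shRNA replicate 2 (edgeR's adjusted p = 0.97 and 0.17). Of 20 partner genes, which comprise scaffolds, subunits and exchange factors of the elongation factors, proofreading factors, the mitochondrial amidotransferase and formyltransferase, enzymes of selenocysteinyl-tRNA synthesis and the enzyme that adds the CCA end, 0 passed edgeR's adjusted threshold, 0 had an unadjusted p under 0.05 (against 6.65% of all genes lower and 7.47% higher), 0 passed in DESeq2 and 1, Tsfm, was higher in limma with weights (5%, against 8.67%). With Ctrl shRNA replicate 2 left out, 0 passed edgeR's adjusted threshold, beside 0.675% of all genes lower and 1.11% higher. The partner median was -0.17 with Ctrl shRNA replicate 2 and 0.08 without it.

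Expressed per transcript length, the cytosolic genes stood far above the mitochondrial ones. In all 14 pairs the cytosolic gene had the higher FPKM in the controls, by a median ratio of 4.43, from 1.52 for Lars over Lars2 to 68.4 for Nars over Nars2. The highest level was that of Gars, the glycyl-tRNA synthetase, at 88.0 ± 8.61 FPKM (SD, n = 3), followed by Nars, for asparagine, at 78.0 ± 1.08 FPKM. Kars, for lysine, at 47.7 ± 2.94 FPKM and Aars, for alanine, at 47.4 ± 5.83 FPKM came next and did not differ beyond their spread. Tarsl2 had the lowest cytosolic level, at 2.45 ± 0.45 FPKM. Of the mitochondrial genes, Lars2 led with 22.5 ± 4.79 FPKM, followed by Yars2, for tyrosine, at 9.26 ± 1.49 FPKM, and Nars2 was lowest at 1.14 ± 0.15 FPKM.

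**Figure D4:**
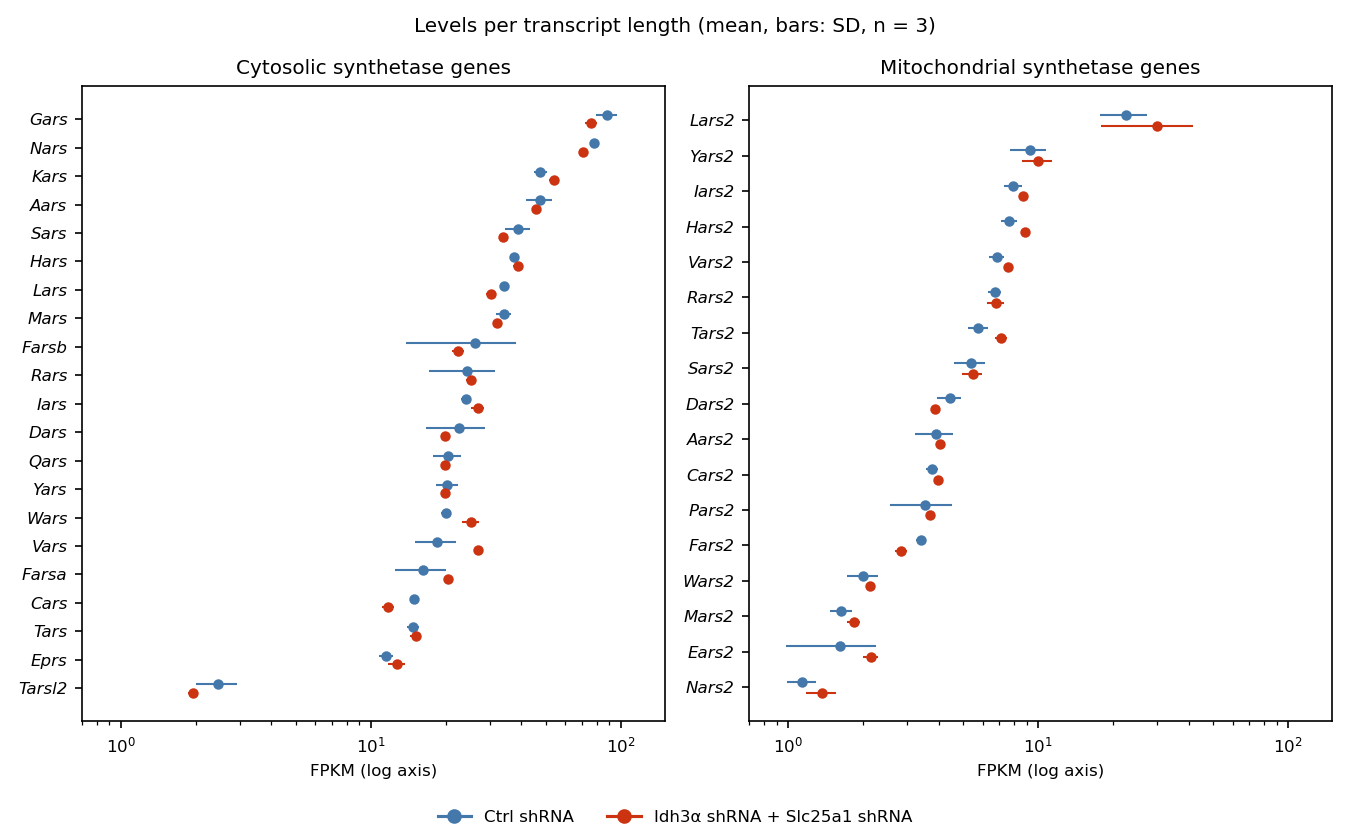
Mean FPKM on a log axis with the SD of 3 libraries for each synthetase gene, controls in blue and knockdown in red, ordered by the control level. The cytosolic genes other than Tarsl2 lie between 11.5 and 88.0 FPKM in the controls, and the mitochondrial genes other than Lars2 between 1.14 and 9.26 FPKM.

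Because many cytosolic synthetases are described as ATF4 targets, they were set beside 38 other genes of the amino acid response, of which 36 could be tested. Of these, 25 had a log2 fold change below 0, with a median of -0.27. By edgeR 0 passed the adjusted threshold over all libraries, with 17 lower and 2 higher at an unadjusted p under 0.05 (47.2% and 5.56% of the 36, against 6.65% and 7.47% of all genes). Leaving out Ctrl shRNA replicate 2 gave 10 lower (27.8%, against 0.675%) and 0 higher, and DESeq2 gave 9 lower (25%, against 1.6%) and 0 higher. Their summed level was 3183, 3224 and 3222 CPM in the controls and 2851, 2818 and 2752 CPM in the knockdown, so the groups did not overlap. Both lists were drawn up with earlier results of these data known.

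Without Ctrl shRNA replicate 2, the genes that fell included enzymes of amino acid and one-carbon metabolism: Asns, the asparagine synthetase, with a log2 fold change of -0.49 (adjusted p = 0.014), Aldh1l2 at -0.62 (adjusted p = 0.014), Pck2 at -0.53 (adjusted p = 0.017) and Gpt2 at -0.35 (adjusted p = 0.034) in edgeR. The amino acid transporter gene Slc7a5 fell by 0.53 on the log2 scale (adjusted p = 0.016). Chac1, which degrades glutathione, fell by 1.00 (adjusted p = 0.012), Vldlr, a lipoprotein receptor, by 1.14 (adjusted p = 0.0011), Nupr1 by 0.82 (adjusted p = 0.014), Stc2 by 0.74 (adjusted p = 0.028) and Trib3, a pseudokinase of the same response, by 0.65 (adjusted p = 0.042). Vldlr came nearest to the threshold over all libraries, with edgeR's adjusted p = 0.057. Psat1, of serine synthesis, passed in DESeq2 over all libraries (log2 fold change -0.32, adjusted p = 0.00091) and in limma with weights (-0.30, adjusted p = 0.0072), but not in edgeR with or without that control. The largest fitted difference of the list was a higher level of Cth, the cystathionine gamma-lyase, which read 0.581, 0.456 and 0.488 CPM in the controls and 1.71, 1.32 and 1.21 CPM in the knockdown, without overlap (log2 fold change 1.46 in edgeR, adjusted p = 0.24; 1.51 in limma with weights, adjusted p = 0.021). In limma with weights Got1, an aspartate aminotransferase, at 0.22 (adjusted p = 0.042) and the amino acid transporter gene Slc38a2 (adjusted p = 0.033) were higher as well. These 3 are 8.33% of the 36, against 8.67% of all genes higher in that fit, while 18 were lower (50%, against 6.34%).

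The 12 cytosolic synthetases often named as ATF4 targets had a median log2 fold change of -0.07 (8 of 12 below 0), and the other 9 cytosolic synthetases one of 0.04 (4 of 9 below 0). Without Ctrl shRNA replicate 2 the medians were -0.14 (9 of 12 below 0) and 0.13 (2 of 9 below 0). In that fit Cars, the lowest of the 12 at -0.36, lay beside Gpt2, and the other 9 amino acid response genes that fell had lower values, while Wars was the highest of the 12 at 0.32. Atf4 itself read 201, 241 and 208 CPM in the controls and 198, 200 and 183 CPM in the knockdown, so that every knockdown library lay below every control. Its log2 fold change was -0.16 ± 0.10 (SE; edgeR's adjusted p = 0.42) over all libraries and -0.09 ± 0.07 (SE; adjusted p = 0.50) without Ctrl shRNA replicate 2.

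**Figure D5:**
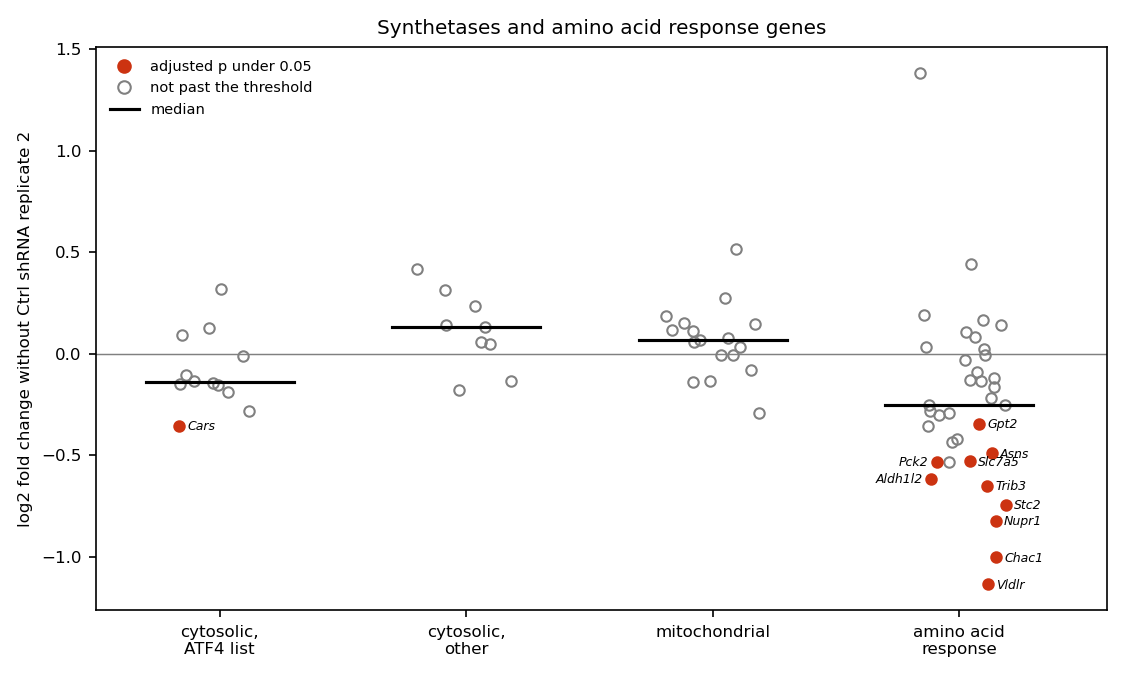
Log2 fold changes without Ctrl shRNA replicate 2 for the cytosolic synthetases on the ATF4 list, the other cytosolic synthetases, the mitochondrial synthetases and the amino acid response genes. Filled points passed edgeR's adjusted threshold and bars are medians; Cars is the one filled synthetase, against 10 amino acid response genes.

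The promoters were read for the core of the C/EBP-ATF response element, the letters TGATGNAA on either strand (TTNCATCA as read on the other), in RefSeq windows (GRCm38.p6) of 250 bases before and 50 after the gene start. A window was found for 28 synthetases, 14 of each compartment. The motif was present in 5 of them (17.9%), all cytosolic, against 4.51% of 27025 genes. One match from each of the 5 genes is shown with 11 bases on either side, in the direction of the gene, with the motif in capitals.

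Aars (chr8:111033840-111033869, plus strand): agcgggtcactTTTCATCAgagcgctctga
Gars (chr6:55037960-55037989, plus strand): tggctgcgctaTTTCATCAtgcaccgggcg
Iars (chr13:49682126-49682155, plus strand): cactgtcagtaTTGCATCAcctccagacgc
Yars (chr4:129189895-129189924, plus strand): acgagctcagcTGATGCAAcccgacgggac
Tars (chr15:11399655-11399684, minus strand): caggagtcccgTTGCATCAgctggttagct

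Positions are counted from the RefSeq start. The annotation used for the counts begins Aars and Yars further upstream, at 111033144 and 129189760. For 26 of 29 synthetase windows the last 20 bases were found in a transcript of the gene. The match begins 30 and 15 bases before the RefSeq start in Gars and Tars, and at base 4, 8 and 10 from it in Yars, Iars and Aars. Their log2 fold changes spread over both directions, at -0.05 for Aars, -0.22 for Gars, 0.03 for Tars, -0.03 for Yars and 0.16 for Iars, and none passed edgeR's test. With Ctrl shRNA replicate 2 left out they were -0.15 for Aars, -0.13 for Gars, -0.01 for Tars, -0.11 for Yars and 0.12 for Iars, so 4 of 5 lay below 0, and again none passed. For contrast, the 160 bases before the start of Sars (chr3:108445260-108445419, minus strand) and of Tarsl2 (chr7:65644738-65644897, plus strand), which had lower fitted levels in the knockdown, hold no match.

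Sars: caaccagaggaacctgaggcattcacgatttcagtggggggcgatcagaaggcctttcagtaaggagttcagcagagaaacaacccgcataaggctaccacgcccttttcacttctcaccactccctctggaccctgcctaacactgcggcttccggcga
Tarsl2: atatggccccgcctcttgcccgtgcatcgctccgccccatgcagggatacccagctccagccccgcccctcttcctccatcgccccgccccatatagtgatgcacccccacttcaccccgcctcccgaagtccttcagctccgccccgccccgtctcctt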

How the data were processed

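RNA was sequenced in 6 MLE12 libraries, 3 per group, grouped by the labels' titles and treatment. The deposited tables hold read counts per gene (featureCounts 1.5.0-p3) and FPKM values made by the authors from HISAT2 2.0.5 alignments to mm10; the submitters' processing notes also name StringTie 1.3.3b. The library size that the FPKM values imply was 0.716 (Ctrl shRNA replicate 2) to 1.08 times the total count. Per the file headers the tables also hold gene names, biotypes and coordinates, and 35 of 38 synthetases had the GENCODE M21 start and end. Strand in counting is not given in the sources used here.

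Counts were tested with edgeR 4.0.16 (quasi-likelihood, filterByExpr, TMM, Benjamini-Hochberg over all genes tested). The SE given with an edgeR value was derived from its test, as the absolute log2 fold change over the square root of the F statistic. Alternatives were DESeq2 1.42.0, limma 3.58.1 on log2(FPKM + 1) or log2(FPKM + 0.1), limma with sample quality weights, other scalings and filters, and leaving out each library. The main edgeR fit, DESeq2, limma with a pseudocount of 1 and limma with weights were also run on simulated counts with 200 changed genes. All simulated libraries shared the same spread and none stood apart. A library like Ctrl shRNA replicate 2 was therefore not covered, and the other settings were not simulated. Intervals between libraries cover their spread only. The synthetases and lists were chosen with earlier results of these data known. Library values are printed for synthetases past an adjusted p of 0.05 in edgeR, with or without Ctrl shRNA replicate 2, or in DESeq2. They are also printed for the 4 lowest and 4 highest log2 fold changes. Idh3a, Slc25a1 and Atf4 were named whatever their values. Others named by library (Sars, Rars, Dars, Farsa, Tars2, Lars, Aimp1, Aimp2, Eef1e1, Cth, Gcn1l1, Gm23935 and Gm26917) were chosen after their values were seen. Same-numbered libraries of the 2 groups did not deviate together (correlations -0.251, -0.191 and 0.00953), so numbers were not taken as pairs. One promoter sequence is not reported here.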

Additional observations from a re-analysis of the deposited data

How the results depend on the processing

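Direction held in all 17 other settings for 23 of 38 synthetases, and 15 took both signs. Over all genes the biological coefficient of variation was 0.263 with Ctrl shRNA replicate 2 and 0.102 without it. Leaving that library out changed the sign for 7 synthetases. With a replicate block, paired by number, 0 synthetases and 0 of all genes passed. Lower synthetases numbered 0 over all libraries, 1 by DESeq2, 4 by limma with quality weights, 2 by DESeq2 without Ctrl shRNA replicate 2 and 0 to 1 with a library left out (1 without Ctrl shRNA replicate 2); higher ones 0, 0, 4, 3 and 0. One partner gene was higher with weights. Amino acid response genes that were lower numbered 1 with no count filter or protein-coding genes only, 9 by DESeq2, 18 with weights (50%, against 6.34% of all genes; 3 higher, 8.33% against 8.67%), 17 by DESeq2 without Ctrl shRNA replicate 2 (47.2%, against 3.35%) and 0 to 10 with a library left out (10 without that control). By library size alone, which moved the median of all genes to 0.16, the cytosolic and mitochondrial medians were 0.11 and 0.29 and 0 synthetases lay below without overlap. The cytosolic median was 0.0049 with weights, -0.0070 by DESeq2 without Ctrl shRNA replicate 2 and -0.055 to -0.012 with a library left out; the mitochondrial one was 0.066 (without Ctrl shRNA replicate 2) to 0.19 (without Ctrl shRNA replicate 1). Leaving out a library gave 6 to 10 lower (10 without Ctrl shRNA replicate 2) and 8 to 12 higher without overlap (12, 11 and 11 without Ctrl shRNA replicates 1 and 2 and knockdown replicate 2, or 31.6%, 28.9% and 28.9%), while of all genes 13.9% to 21.8% were then lower and 17.8% to 23.7% higher without overlap. Farsb was 0.054 by library size, 0.25 with weights, 0.24 by DESeq2 without that control and -0.44 to 0.23 with a library left out; Dars was 0.038, 0.0089, 0.0503 and -0.31 to 0.046; Rars was -0.10 to 0.31. The causes were not tested.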

Other observations

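Of 8 genes of the integrated stress response (its kinases, the activator Gcn1l1, the kinase substrate Eif2s1 and the phosphatase subunits Ppp1r15a and Ppp1r15b), 0 passed edgeR's adjusted threshold with or without Ctrl shRNA replicate 2 or in DESeq2, and 0 were lower and 2 higher before adjustment, with p under 0.05 over all libraries (25%, against 7.47% of all genes). Limma with quality weights called 2 higher (25%, against 8.67%) and DESeq2 without Ctrl shRNA replicate 2 called 1 higher (12.5%, against 4.74%). For 3 of the 8 (37.5%, against 14.7% of all genes) every knockdown library lay above every control: Eif2ak1, Eif2ak3 and Gcn1l1, with log2 fold changes of 0.31, 0.32 and 0.35 over all libraries and 0.18, 0.19 and 0.26 without Ctrl shRNA replicate 2. Eif2ak4, which encodes GCN2, read 23.8 to 27.6 CPM in the knockdown and lay within that range in every control (log2 fold change 0.003 ± 0.09 SE), so its groups overlapped. Gcn1l1, whose product helps activate GCN2, read 242, 196 and 220.1 CPM in the controls and 276, 276 and 283 CPM in the knockdown without overlap (log2 fold change 0.35 ± 0.10 SE; adjusted p = 0.31 by edgeR and 0.0084 by limma with quality weights); it was named after its values were seen.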
